A study of Caenorhabditis elegans with 22 samples.

Results

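The miRNA hairpins mir-86 and mir-785 of Caenorhabditis elegans, listed in the count table as cel-mir-86 and cel-mir-785, are described here across age and compound. They are 2 of the 250 hairpins in the deposited count table, and both passed the filter on low counts, which kept 141. mir-86 was chosen by its measured counts, which differed between the compounds at days 5 and 10, so its values in those contrasts are given as a description with no test. mir-785 was chosen as its relative and not for its own values. The material was whole N2 hermaphrodites, the wild-type laboratory strain. Worms given rotenone (0.039441 µg/ml), which blocks electron transport at mitochondrial complex I, were compared with worms given 2-deoxyglucose, a sugar analogue that hinders glycolysis. The dose of 2-deoxyglucose is not in the labels. Each compound had 3 small RNA libraries at 1, 5 and 10 days of age and 2 at 20 days, or 22 libraries in 8 groups. The sample labels name 2-deoxyglucose where the series title names DMSO, and the name of the sample labels is used here. No untreated worms were analysed here, so a difference cannot be assigned to either compound.

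A miRNA is cut from a hairpin-shaped precursor, and a single strand is loaded into an Argonaute protein, chiefly ALG-1 and ALG-2 in the worm. The loaded strand finds messenger RNAs mainly through its seed, a short stretch near its 5′ end, and lowers their translation or stability. mir-86 and mir-785 are grouped into a family because their mature strands share a seed, so they can in principle pair with the same sites. Their hairpins lie on different chromosomes and are separate genes.

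In the WBcel235 annotation, to which 247 of the 250 hairpin names could be matched, mir-86 lies on the minus strand of chromosome III at 11936637 to 11936734. It sits in an intron of 2733 bases of the protein-coding gene Y56A3A.7 (11933990 to 11947019) and on the same strand as that gene. Its annotated mature arms are 23 and 22 bases long, at 11936697 to 11936719 and 11936654 to 11936675. mir-785 lies on the plus strand of chromosome X at 3004668 to 3004761 and overlaps no protein-coding gene. The nearest, Y41G9A.6, is 865 bases away. The arms of mir-785 are 22 bases each, at 3004687 to 3004708 and 3004726 to 3004747. The deposited table has a single count per hairpin, so the arms could not be separated.

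Total counts per library ran between 664900 and 2233973. mir-86 had 333 to 2294 counts in a library and mir-785 had 155 to 863, so counting error alone came to 2.09% to 5.48% for mir-86 and 3.40% to 8.03% for mir-785. The labels name no molecular identifiers that would tell PCR copies apart, so these figures cover counting error only. Libraries of a group were not stated to come from separate cultures, so the p-values reflect only how much the libraries at hand varied, which may be technical. Levels are CPM, counts scaled to a common library size, after TMM scaling, which evens out differences in composition between libraries. Hairpins that mark muscle (mir-1), intestine (mir-60), glia (mir-228), neurons (lsy-6, mir-124, mir-790 and mir-791), sperm (mir-44 and mir-45) and the eggs and embryos inside the worms (mir-35 to mir-41) all had counts in every group. The libraries of day 5 differed most among themselves. Over the hairpins the chi-square per degree of freedom between libraries of a group reached 327.5 in rotenone and 319 in 2-deoxyglucose at day 5, and was 145 or less at the other ages; library 1 of each compound took part in the largest values. No sequencing lane held libraries of both compounds at the same age, so no difference between the compounds could be computed within a lane.

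Both hairpins were of middling abundance. Ranked by mean CPM among the 141 hairpins, mir-86 stood between 45 and 53 in the 8 groups and mir-785 between 62 and 70. Every library had more counts of mir-86 than of mir-785, by 2.15 to 4.95 times, with a median of 3.36. How well each RNA was captured was not measured, so these ratios do not show which of them was the more abundant. Both had narrower ranges than most of the tested hairpins, which include scarce ones with larger counting error. Between the lowest and the highest of the 8 group means mir-86 spanned 1.85 times and mir-785 1.51 times, and 98 and 122 of the 141 hairpins had wider ranges than mir-86 and mir-785.

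mir-86, the member on which the choice rests, was lowest in the 2-deoxyglucose libraries of days 5 and 10, and its levels at day 20 were near those of day 1. At day 1 it had 996, 1058 and 1003 CPM in the rotenone libraries, against 1058, 834 and 898 CPM in the 2-deoxyglucose libraries. At day 5 it had 829.7, 1026 and 881 CPM in the rotenone libraries, against 659.5, 548 and 645 CPM in the 2-deoxyglucose libraries. The groups overlapped at day 1 and were apart at day 5, where the lowest rotenone library lay above the highest 2-deoxyglucose library. At day 10 mir-86 had 958, 1003 and 933 CPM in the rotenone libraries, against 625, 694 and 675 CPM in the 2-deoxyglucose libraries. At day 20 it had 1063 and 1222 CPM in the rotenone libraries, against 1054 and 996 CPM in the 2-deoxyglucose libraries. The groups were again apart at day 10 and lay next to each other at day 20.

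**Figure D1:**
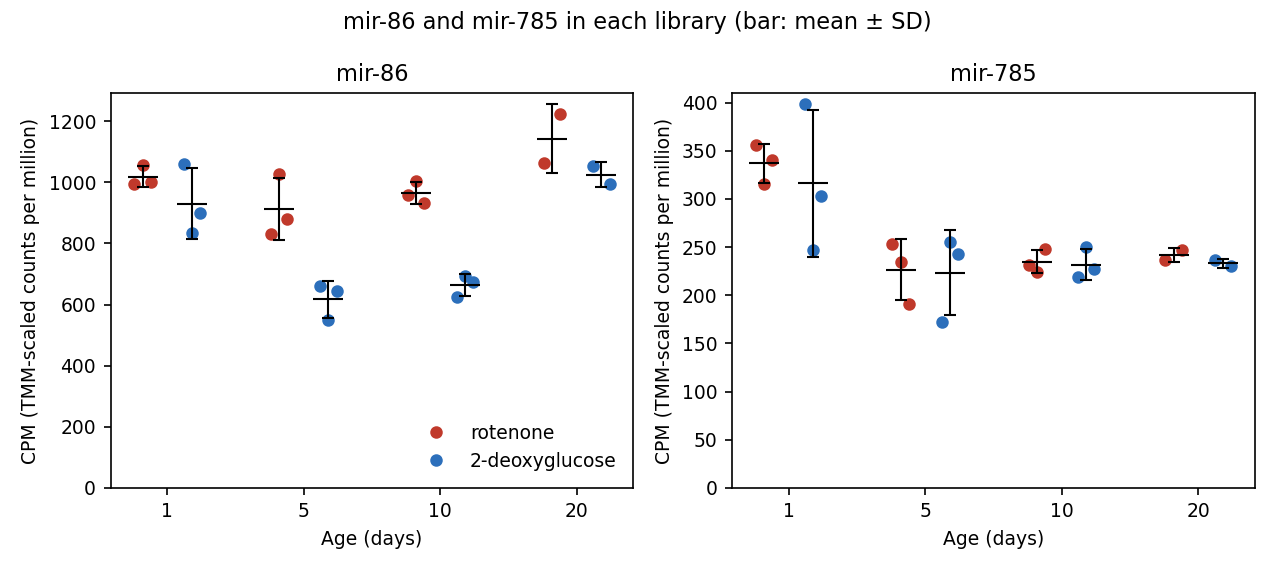
CPM of mir-86 (left) and mir-785 (right) in each of the 22 libraries against age in days, with rotenone in red and 2-deoxyglucose in blue; points are libraries and black bars the group mean ± SD. For mir-86 the 2-deoxyglucose libraries of days 5 and 10 lie between 548 and 694 CPM, below the other libraries, while the mir-785 libraries of both compounds lie together at each age.

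The difference between the compounds on which mir-86 was chosen was of similar size at both ages. At day 5 mir-86 averaged 912 ± 102 CPM with rotenone and 618 ± 60.5 CPM with 2-deoxyglucose (SD, n = 3 each), a ratio of 1.48 and a log2 difference of 0.56 ± 0.12 (SE). At day 10 it averaged 965 ± 35.5 CPM with rotenone and 665 ± 35.6 CPM with 2-deoxyglucose (SD, n = 3 each), a ratio of 1.45 and a log2 difference of 0.54 ± 0.12 (SE). The rule that chose mir-86 used these values, and they stand as a description. Each rotenone library lay above each 2-deoxyglucose library for 15.6% of all hairpins at day 5 and for 14.9% at day 10. Across the 141 hairpins, 9.93% were called between the compounds at day 5 and 5.67% at day 10, at an adjusted p of 0.05 or less. Nearest to the threshold at day 5 were mir-1022 inside it (0.47 ± 0.15) and mir-37 outside it (0.58 ± 0.19). At day 10 these were mir-64 inside (0.47 ± 0.14) and mir-1822 outside (1.03 ± 0.32).

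Without any single one of the 22 libraries the log2 difference of mir-86 stayed between 0.45 and 0.63 at day 5 and between 0.39 and 0.59 at day 10. With lane as a factor, which draws on libraries of other ages, it was 0.46 at day 5 and 0.57 at day 10. In a fit of day 5 alone it was 0.44, and without library 1 of both compounds at day 5 it was 0.67. The markers of eggs and embryos stood differently at these ages. Their summed level was 182814 to 276875 CPM with rotenone and 150838 to 164684 CPM with 2-deoxyglucose at day 5, where 4 of 7 were called higher in rotenone, against 8.51% of all hairpins, and none lower. At day 10 it was 183238 to 250233 CPM with rotenone and 237696 to 303381 CPM with 2-deoxyglucose, where none of the 7 was called higher and 1 was called lower, against 1.42% of all hairpins. In whole worms, fewer cells of a type and less RNA per cell cannot be told apart. The intestinal hairpin mir-60 ranged between 1813 and 4593 CPM in the rotenone libraries of day 5 and between 988 and 3767 CPM in the 2-deoxyglucose libraries. The part of these cell types in the values of mir-86 was not tested.

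The ages that the choice of mir-86 did not use gave no call between the compounds. At day 1 mir-86 averaged 1019 ± 34.0 CPM with rotenone and 930.3 ± 115 CPM with 2-deoxyglucose (SD, n = 3 each). The log2 difference was 0.13 with a 95% interval from -0.11 to 0.37 (edgeR quasi-likelihood F test, Benjamini-Hochberg adjusted p = 0.597, where 11.3% of hairpins were called). At day 20 the means were 1142 ± 113 CPM with rotenone and 1025 ± 41.5 CPM with 2-deoxyglucose (SD, n = 2 each). The log2 difference was 0.16 with an interval from -0.14 to 0.45 (edgeR adjusted p = 0.567, with 0.709% of hairpins called). Although each rotenone library lay above each 2-deoxyglucose library for mir-86 at day 20, the same held for 39.7% of all hairpins. Over the mean of days 1 and 20 the log2 difference was 0.14 with an interval from -0.05 to 0.33 (edgeR adjusted p = 0.417, with 8.51% called). All 3 intervals include 0. Whether the difference of mir-86 between the compounds changed with age over days 5 and 10 was not tested, since this would use the values on which the hairpin was chosen.

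For mir-785, which was tested at every age, no difference between the compounds passed the threshold. At day 1 it had 356, 315 and 339.9 CPM in the rotenone libraries, against 398, 247 and 303 CPM in the 2-deoxyglucose libraries. At day 5 it had 254, 235 and 191 CPM in the rotenone libraries, against 173, 255 and 242 CPM in the 2-deoxyglucose libraries. The groups overlapped at both ages, and the 2-deoxyglucose libraries of day 1 were the most scattered, with a coefficient of variation of 24.1%. At day 10 it had 232, 224 and 248 CPM in the rotenone libraries, against 219, 249.6 and 227 CPM in the 2-deoxyglucose libraries. At day 20 it had 237 and 247 CPM in the rotenone libraries, against 236 and 229.8 CPM in the 2-deoxyglucose libraries. The groups overlapped at day 10. At day 20 the lower rotenone library lay less than 1 CPM above the higher 2-deoxyglucose library.

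The log2 differences of mir-785, rotenone minus 2-deoxyglucose, were 0.08 ± 0.15 at day 1, 0.04 ± 0.16 at day 5, 0.02 ± 0.16 at day 10 and 0.05 ± 0.20 at day 20 (SE). None passed the test (edgeR adjusted p = 0.813, 0.941, 0.961 and 0.896 in the order of the ages), and at each age the sign turned under at least 1 other setting or omission. At day 5 the 95% interval ran from -0.30 to 0.37 and at day 10 from -0.31 to 0.35. Without library 1 of both compounds at day 5 the value of that age was -0.21 (edgeR adjusted p = 0.425). A p-value above the threshold does not show that the compounds left mir-785 alike.

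**Figure D2:**
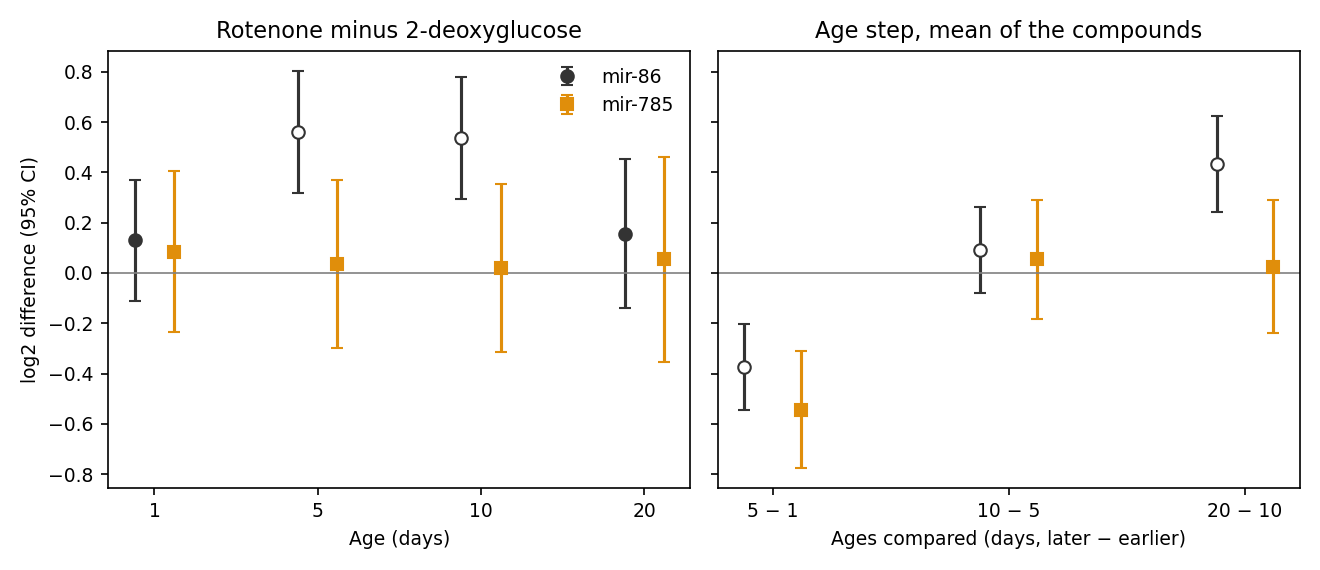
log2 differences with 95% confidence intervals for mir-86 (circles) and mir-785 (squares): rotenone minus 2-deoxyglucose at each age (left) and later minus earlier age over the mean of the compounds (right). Open circles mark values of mir-86 that use the day 5 or 10 libraries on which it was chosen and that have no test, such as 0.56 at day 5 and 0.54 at day 10, and the other differences between the compounds have intervals that include 0.

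With age, mir-785 fell between days 1 and 5 and passed no test in the later steps. Steps were taken over the mean of the compounds at each age. Between days 1 and 5 mir-785 fell by 0.54 ± 0.11 on the log2 scale (SE, edgeR adjusted p = 2.68e-04). The same step of mir-86 was -0.37 ± 0.08. It uses the day 5 libraries on which mir-86 was chosen, so this step and the later steps of mir-86 that use day 5 or 10 are given without a test. In this step 54.6% of hairpins were called, and 24.8% of hairpins were called lower. By total counts in place of TMM the median of all hairpins moved to -0.21, 22 hairpins rose and 63 fell, against 42 and 35 with TMM, and mir-86 and mir-785 stood at -0.64 and -0.81. The fall of mir-785 kept its call under each of the other settings and without each library in turn, with values between -0.81 and -0.44, and the value of mir-86 lay between -0.64 and -0.32.

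In rotenone worms the fitted change between days 1 and 5 was -0.16 ± 0.12 for mir-86 and -0.57 ± 0.16 for mir-785 (log2, SE). In 2-deoxyglucose worms it was -0.59 ± 0.12 for mir-86 and -0.52 ± 0.16 for mir-785. The values of mir-86 share the day 5 libraries on which it was chosen, and all 4 are given without a test.

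Between days 5 and 10 mir-785 did not pass the test, at 0.05 ± 0.11 (edgeR adjusted p = 0.732, where 44% of hairpins were called). mir-86 stood at 0.09 ± 0.08. Its value was 0.22 without rotenone library 1 of day 1, 0.22 without 2-deoxyglucose library 2 of day 1, 0.24 without rotenone library 1 of day 10, and 0.17 with TMM computed without abundant hairpins. That setting, here and below, left out the egg and embryo markers mir-35 to mir-41, mir-42 and the 5 most abundant hairpins. Not all of these were abundant: mir-41 had a mean of 67.4 CPM.

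Between days 10 and 20 mir-785 did not pass the test, at 0.03 ± 0.13 (edgeR adjusted p = 0.878), in a step where 55.3% of hairpins were called. The step of mir-86 was 0.43 ± 0.09, and between 0.33 and 0.60 under the other settings and without each library in turn. By compound, the fitted step of mir-86 was 0.24 ± 0.13 in rotenone worms and 0.62 ± 0.13 in 2-deoxyglucose worms, and that of mir-785 was 0.04 ± 0.18 and 0.01 ± 0.18 in the same worms.

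Over the whole span, day 20 against day 1, mir-86 did not pass the threshold in either compound. The log2 difference was 0.17 ± 0.13 in rotenone worms and 0.14 ± 0.13 in 2-deoxyglucose worms (edgeR adjusted p = 0.266 and 0.365). With DESeq2 size factors the value in 2-deoxyglucose worms was 0.26 and passed (adjusted p = 0.0376), and with TMM computed without abundant hairpins both passed (0.36 in rotenone and 0.35 in 2-deoxyglucose). With total counts the value in rotenone was -0.01.

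mir-785 was lower at day 20 than at day 1 in both compounds. It averaged 242 ± 7.18 CPM at day 20 and 337 ± 20.4 CPM at day 1 in rotenone worms (SD, n = 2 and n = 3). In 2-deoxyglucose worms it averaged 233 ± 4.47 CPM at day 20 and 316 ± 76.3 CPM at day 1 (SD, n = 2 and n = 3). The log2 changes were -0.48 ± 0.18 in rotenone and -0.45 ± 0.18 in 2-deoxyglucose (edgeR adjusted p = 0.0220 and 0.0342). These contrasts called 63.8% and 62.4% of all hairpins, 29.8% and 34% as lower. The direction was the same in all settings, but the calls were not firm. In rotenone the call was lost with lane as a factor (-0.22, adjusted p = 0.398) and with TMM computed without abundant hairpins (-0.29, adjusted p = 0.168). It was also lost without rotenone library 1 of day 1 (-0.51), library 1 of day 20 (-0.44) or library 2 of day 20 (-0.57). In 2-deoxyglucose it was lost with DESeq2 size factors (-0.32, adjusted p = 0.112) and in 12 of the 22 omissions of a library. These were the omissions of rotenone library 1 of day 1, library 3 of day 5, libraries 1 and 2 of day 10 and both of day 20, and of 2-deoxyglucose libraries 1 and 3 of day 1, 1 and 2 of day 10 and both of day 20. The value nearest to 0 came without 2-deoxyglucose library 1 of day 1 (-0.24). That library held the highest level of mir-785, 398 CPM. The muscle hairpin mir-1 was lower at day 20 too, with 139 to 194 CPM at day 20 and 599 to 703 CPM at day 1 in rotenone worms, and 154 to 199 CPM at day 20 and 448 to 656 CPM at day 1 in 2-deoxyglucose worms. The intestinal hairpin mir-60 had 777 to 880.3 CPM at day 20 and 1739 to 1907 CPM at day 1 in rotenone worms, and 603 to 639 CPM at day 20 and 2014 to 2230.5 CPM at day 1 in 2-deoxyglucose worms. These ranges lay apart, with day 20 below day 1. The sperm hairpins mir-44 and mir-45 together had 44291 to 54748 CPM at day 20 and 18127 to 19743 CPM at day 1 in rotenone worms. In 2-deoxyglucose worms they had 41806 to 43272 CPM at day 20 and 11971 to 16303 CPM at day 1. Over the libraries mir-44 and mir-45 had nearly equal means, 12401 and 12344 CPM. How reads shared by hairpins were counted is not given, so they may not be separate measures. The glial hairpin mir-228 had 118914 to 136137 CPM at day 20 and 74111 to 80063 CPM at day 1 in rotenone worms. In 2-deoxyglucose worms it had 101098 to 107749 CPM at day 20 and 87280 to 107409 CPM at day 1. Neuron hairpins together had 229 to 271 CPM at day 20 and 192 to 227 CPM at day 1 in rotenone worms. In 2-deoxyglucose worms they had 176 to 291 CPM at day 20 and 201 to 278 CPM at day 1. Whether these marker hairpins tracked the amount of their cell types at day 20 was not tested. The part of these cell types in the values of mir-785 was not tested.

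No difference between the compounds in the change with age passed the test of the interaction, day 20 minus day 1 in rotenone less the same in 2-deoxyglucose. It was 0.03 with a 95% interval from -0.35 to 0.41 for mir-86 and -0.03 with an interval from -0.55 to 0.49 for mir-785 (edgeR adjusted p = 0.970 for both, with 3.55% of hairpins called). Both signs turned under at least 1 other setting or omission.

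The ratio of the hairpins within a library needs no scaling between libraries, and it was higher at day 20 than at day 1. The mir-86 count was 4.49 and 4.95 times that of mir-785 in the rotenone libraries of day 20, against 2.80, 3.35 and 2.95 times in those of day 1. In 2-deoxyglucose worms it was 4.46 and 4.33 times at day 20, against 2.66, 3.38 and 2.96 times at day 1. Each day 20 library lay above each day 1 library of either compound. The mean log2 ratio was higher at day 20 by 0.60, or 1.51 times (exact permutation test within compounds, two-sided, p = 0.01, the smallest that the 100 arrangements allow). It stayed between 0.56 and 0.64 without each of the 10 libraries in turn. Between these ages 63.8% of all hairpins were called in rotenone and 62.4% in 2-deoxyglucose, so such a shift need not be particular to this pair. Ratios of other pairs were not tested.

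The ratios of days 5 and 10 are given as values. At day 5 the ratio averaged 4.08 ± 0.71 with rotenone and 2.88 ± 0.86 with 2-deoxyglucose (SD, n = 3 each), and the libraries overlapped. At day 10 it averaged 4.12 ± 0.35 with rotenone and 2.87 ± 0.10 with 2-deoxyglucose (SD, n = 3 each), and the libraries did not overlap. These values rest on the counts that chose mir-86 and were not tested. Over days 1 and 20 the log2 ratio was 0.06 higher in rotenone (exact permutation test within ages, two-sided, p = 0.417, where the smallest of the 120 arrangements would be 0.0167).

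**Figure D3:**
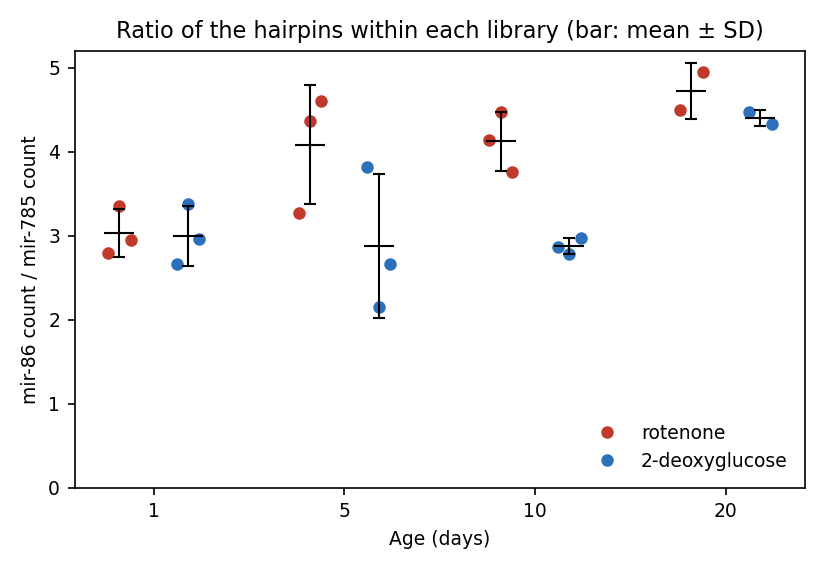
Count of mir-86 divided by the count of mir-785 in each of the 22 libraries against age in days, with rotenone in red and 2-deoxyglucose in blue; black bars are the group mean ± SD. The 4 libraries of day 20 lie between 4.33 and 4.95, above the 6 libraries of day 1, which lie between 2.66 and 3.38.

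In the order of the group means, mir-86 was lowest in 2-deoxyglucose at day 5 (618 CPM) and day 10 (665 CPM), whose libraries overlapped each other. A gap then separated them from rotenone at day 5 (912 CPM), 2-deoxyglucose at day 1 (930.3 CPM), rotenone at day 10 (965 CPM), rotenone at day 1 (1019 CPM) and 2-deoxyglucose at day 20 (1025 CPM). Neighbours in this middle stretch overlapped. Rotenone at day 20 was highest (1142 CPM) and did not overlap the group just below it. For mir-785 the 6 groups of days 5, 10 and 20 had means between 223 and 242 CPM and overlapped their neighbours in the order. The groups of day 1 had higher means, 337 CPM in rotenone and 316 CPM in 2-deoxyglucose, and overlapped each other. Their libraries were not all apart from the later ages. Library 2 of 2-deoxyglucose at day 1 (247 CPM) lay below the highest libraries of both compounds at days 5 and 10. The scatter within groups was 0.12 for mir-86 and 0.20 for mir-785 on the log2 scale, against a median of 0.24 over the 141 hairpins.

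Over the 22 libraries, which share scaling and depth, Pearson's r between the log2 levels of mir-86 and mir-785 was 0.37 and Spearman's rho was 0.26. Of the deviations from the group means the Pearson correlation was 0.19. Among the other 140 hairpins mir-785 came 27th in likeness to mir-86.

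The hairpins most like mir-86 over the 22 libraries by Pearson correlation of log2 CPM were mir-1829a (0.65), mir-52 (0.64), mir-61 (0.62), mir-250 (0.60) and mir-1829c (0.58). mir-52 belongs to the mir-51 family, relatives of miR-100, and mir-61 is known as a target of Notch signalling in the vulval precursor cells. mir-1829a lies in an intron of gas-1, which encodes a subunit of complex I, and it was scarce, at a mean of 16.1 CPM. They were picked for likeness over these same libraries, so what they share with mir-86 follows from the choice. Between days 10 and 20, over the mean of the compounds, all 5 rose, against 28.4% of all hairpins, with log2 changes between 0.35 (mir-250) and 1.08 (mir-1829a). Between the compounds at day 10 none of the 5 was called, where 5.67% of all hairpins were. mir-250 stood at -0.39 ± 0.15 and mir-1829a at 0.16 ± 0.32 there. At day 5 mir-250 (0.63 ± 0.15) and its neighbour mir-61 (0.57 ± 0.15) were called higher in rotenone. At that age 8.51% of all hairpins were called higher, and mir-1829a, mir-52 and mir-1829c were not called. The libraries of days 5 and 10, on which mir-86 was chosen, were part of the likeness.

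The hairpins most like mir-785 were mir-357 (0.77), mir-235 (0.76), mir-793 (0.72), mir-58b (0.70) and mir-59 (0.70). mir-235 is a relative of miR-92 known for holding blast cells quiescent in starved larvae, mir-793 a distant let-7 relative and mir-58b a relative of bantam. They too were picked over these libraries, which include the fall of mir-785. Of the 5, the 4 other than mir-793 fell between days 1 and 5 over the mean of the compounds, against 24.8% of all hairpins, with log2 changes between -0.91 (mir-235) and -1.85 (mir-58b). mir-785 stood at -0.54 ± 0.11 and mir-793 at -0.23 ± 0.13. mir-357 and mir-58b were scarce, at means of 14.9 and 8.19 CPM.

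**Figure D4:**
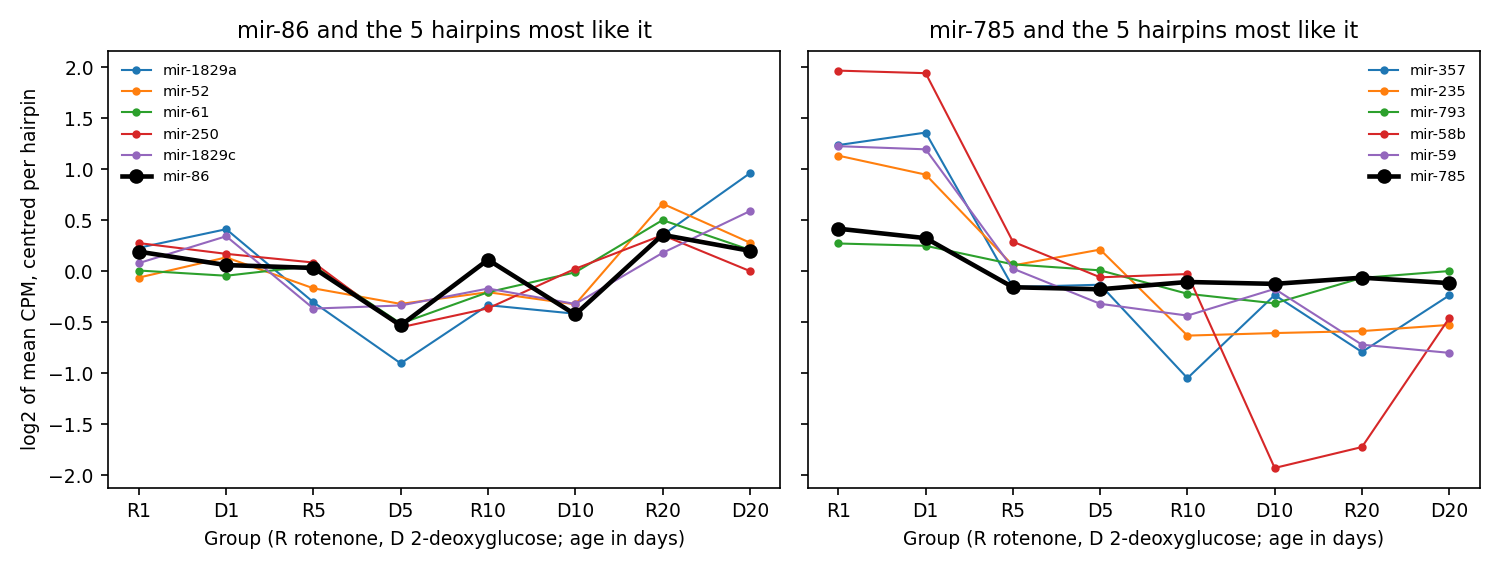
log2 of the group mean CPM, centred for each hairpin, over the 8 groups for mir-86 (left, black) and mir-785 (right, black) with the 5 hairpins most like each in colour; R is rotenone, D is 2-deoxyglucose and the number is the age in days. mir-86 dips in D5 and D10, and mir-785 is lower in the groups after day 1.

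The hairpins near each member were followed with the same tests. mir-8211, 182 bases from mir-86, had 20 counts over all libraries and did not pass the filter. Near mir-785, mir-359 lies 268 bases away on the same strand, and mir-249 and mir-34, a relative of the mammalian miR-34 linked to p53, lie 1679 and 34820 bases away on the other strand. Between days 1 and 5, over the mean of the compounds, mir-249 rose by 0.35 ± 0.09 and mir-34 rose by 0.73 ± 0.09, while mir-785 fell and mir-359 stood at -0.05 ± 0.10 (edgeR adjusted p = 0.00256 for mir-249, 4.15e-07 for mir-34 and 0.682 for mir-359). In that step 29.8% of all hairpins were called higher and 24.8% lower. From day 5 to day 10 the neighbours mir-249 (0.37 ± 0.09), mir-34 (0.96 ± 0.09) and mir-359 (0.25 ± 0.10) rose (edgeR adjusted p = 0.00234, 8.91e-09 and 0.04999). There 44% of all hairpins were called, 31 of the 141 higher and 31 lower. Between days 10 and 20 mir-34 rose by 1.03 ± 0.10 and mir-359 fell by 0.36 ± 0.11 (edgeR adjusted p = 5.32e-09 and 0.00930). In this last step 28.4% of all hairpins were called higher and 27% lower. At day 10 mir-34 was lower in rotenone than in 2-deoxyglucose (-0.52 ± 0.13, edgeR adjusted p = 0.0145), where mir-359 stood at -0.30 ± 0.14 and mir-785 at 0.02 ± 0.16. Of all hairpins 1.42% were called lower in rotenone at that age.

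**Figure D5:**
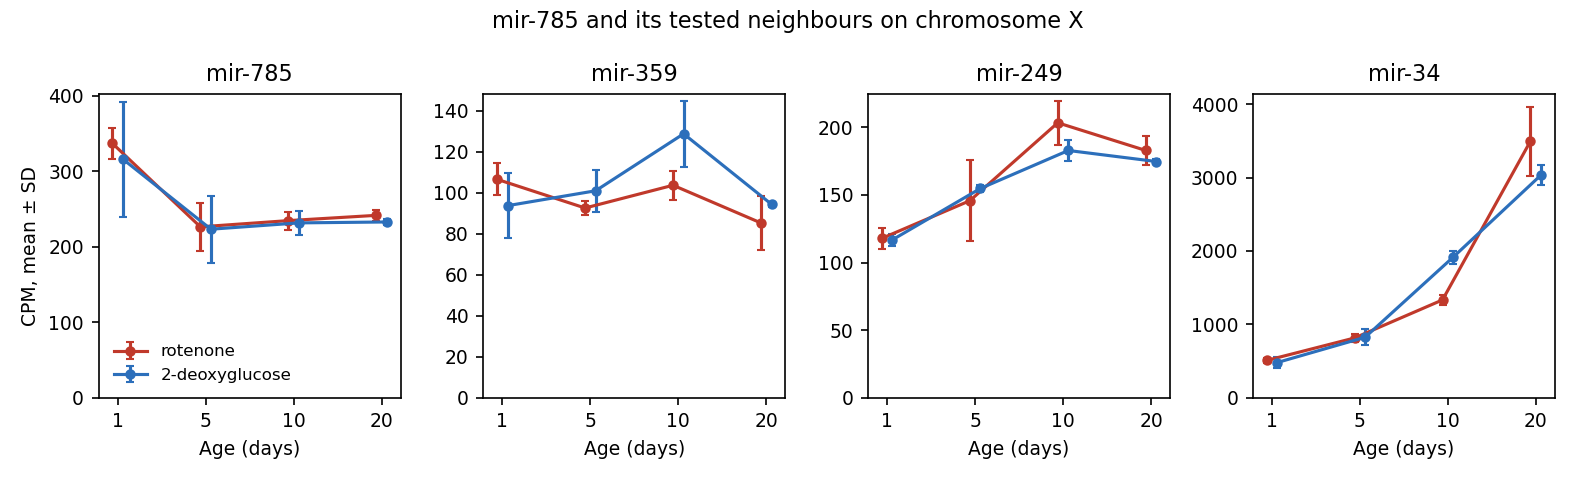
CPM (mean ± SD) of mir-785, mir-359, mir-249 and mir-34, which lie within 50 kb on chromosome X, against age in days, with rotenone in red and 2-deoxyglucose in blue. mir-785 falls after day 1, to 227 CPM in rotenone and 223 CPM in 2-deoxyglucose at day 5, and mir-34 reaches 3496 CPM in rotenone and 3034 CPM in 2-deoxyglucose at day 20.

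Set beside other hairpins, the members were compared with hairpins that have known roles in ageing, which as a list mostly rose between days 1 and 5. That list held lin-4, mir-34, mir-71, mir-80, mir-228, mir-238, mir-239a, mir-239b and mir-246. Of these 9, 7 rose and 1 fell between days 1 and 5, when 29.8% of all hairpins rose and 24.8% fell. Their median log2 change was 0.69 against 0.04 over all hairpins. Later steps of the list were mixed. Between days 5 and 10, 3 rose and 3 fell, where 44% of all hairpins were called. Between days 10 and 20, 5 rose and 3 fell, against 28.4% and 27% of all hairpins. Among the 31 tested hairpins other than mir-86 in introns of protein-coding genes on the same strand, 8 rose and 10 fell between days 1 and 5. Of all hairpins 29.8% rose and 24.8% fell in that step. The median of the 31 was -0.14 against 0.04 over all hairpins. Between days 10 and 20, 5 of these 31 rose and 13 fell, against 28.4% and 27% of all hairpins, with a median of -0.10 against 0.06 over all hairpins. At day 10, where 4.26% of all hairpins were called higher in rotenone, 3 of the 31 were. At day 5, 1 of the 31 was called higher in rotenone and 1 lower. Of all 141 hairpins, 12 were called higher at that age (8.51%) and 2 lower. The egg and embryo markers rose with age, 6 of 7 in rotenone and 7 of 7 in 2-deoxyglucose between days 1 and 20, against 34% and 28.4% of all hairpins, with median log2 changes of 1.49 and 1.85. Whether these markers tracked the amount of eggs and embryos in old worms was not tested, nor was their part in the values of the members.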

How the data were processed

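Small RNA of whole worms was sequenced in 22 libraries prepared, per the labels' protocols, with a small RNA kit of the TruSeq line. The submitters' processing notes name SAMtools 1.3.1-9, BWA 0.7.12-r1039, Trimmomatic 0.36 and CASAVA 1.8.4 without giving their roles. Not given in the sources used here: genome build, strand use and the handling of reads shared by hairpins. The values the authors deposited are raw counts for 250 hairpins, and 0 columns belonged to other samples. All 22 libraries entered a single edgeR 4.0.16 model (R 4.3.3) of 8 groups, after filterByExpr with a minimum count of 10 and a minimum total of 15, and TMM scaling. Each contrast used a robust F test by quasi-likelihood, and p-values were adjusted by Benjamini-Hochberg over the 141 hairpins kept, with a threshold of 0.05. The standard error was taken as the absolute log2 difference over the root of F, and intervals at 95% came from the t distribution. The procedure was also run on simulated counts with the same spread for all hairpins and no lane effect. That run does not show how it performs on libraries as uneven as those of day 5.

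Hairpins were placed by name in the WBcel235 annotation. The text names, for each member, the 5 hairpins with the highest Pearson correlation of log2 CPM (prior count 2) and the hairpins within 50 kb, beside fixed lists. Ratios used an offset of 0.5 counts and exact permutation of libraries. The members, lists and tests were chosen with earlier results of these data known. Steps of mir-86 with age that use day 5 or 10, planned as tests, are given without one. Library numbers follow record order and pair nothing. Alternatives used DESeq2 1.42.0, limma 3.58.1 (voom), other scalings, no filter, lane as a factor, fits of the compared ages alone and omission of each library. The setting called TMM without abundant hairpins left out mir-35 to mir-42 and the 5 most abundant hairpins. Libraries of a group differed beyond counting noise. Sequences were not used here.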

Additional observations from a re-analysis of the deposited data

How the results depend on the processing

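The fall of mir-785 between days 1 and 5 kept its direction and call under all settings run, and the steps of mir-86 between days 1 and 5 and between days 10 and 20, given without a test, kept their direction. For the results below the cause of a change was not tested. No paired analysis was possible because the library numbers follow record order and pair no libraries.

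mir-785, rotenone minus 2-deoxyglucose, turned at day 5 with DESeq2 size factors (-0.042), total counts (-0.049), TMM without abundant hairpins (-0.022), no filter (-0.043), DESeq2 (-0.038), lane as a factor (-0.0031) and day 5 alone (-0.11). It turned at day 1 with lane (-0.16), at day 10 with DESeq2 size factors (-0.030) and DESeq2 (-0.029), and at day 20 with DESeq2 size factors (-0.090), total counts (-0.061), no filter (-0.080), DESeq2 (-0.090) and day 20 alone (-0.11). Its mean of days 1 and 20 turned with total counts (-0.0012) and those ages alone (-0.0098), and its step between days 10 and 20 with lane (-0.0011) and those ages alone (-0.057). mir-86 at day 20 turned with that age alone (-0.0089), and at day 5 it moved to 0.44 with that age alone. The interaction of mir-86 turned with DESeq2 size factors (-0.12), total counts (-0.055), no filter (-0.12), DESeq2 (-0.12), lane (-0.0078) and those ages alone (-0.067), and that of mir-785 with lane (0.46).

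Day 20 minus day 1, mir-86 in rotenone passed with TMM without abundant hairpins (0.36) and turned with total counts (-0.014). In 2-deoxyglucose it passed with DESeq2 size factors (0.26), DESeq2 (0.26) and TMM without abundant hairpins (0.35). mir-785 lost its call in rotenone with TMM without abundant hairpins (-0.29) and lane (-0.22). In 2-deoxyglucose it lost it with DESeq2 size factors (-0.32), TMM without abundant hairpins (-0.23), no filter (-0.32), DESeq2 (-0.32) and those ages alone (-0.40). mir-86 between days 5 and 10 stood at 0.17 with TMM without abundant hairpins.

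Of counts of called hairpins, day 5 had 9 with no filter and 0 in day 5 alone, where edgeR gave 12 at an unadjusted p under 0.05 and DESeq2 on all ages called 17. Day 10 had 4 with no filter, 13 with DESeq2 and 13 in day 10 alone. Day 20 had 3 with DESeq2 size factors, 4 with DESeq2, 2 with lane and 18 in day 20 alone. The mean of days 1 and 20 had 20 in those ages alone. The interaction had 3 with no filter, 9 with DESeq2 and 8 in those ages alone.

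Alternatives chosen after seeing the data left out day 5 libraries. Without the 2 libraries numbered 1 of day 5, mir-785 stood at -0.21 at day 5, and the counts were 38 at day 5, 17 at day 10, 11 at day 20, 19 for the mean of days 1 and 20 and 9 for the interaction. Without all 6, mir-785 stood at -0.018 at day 20 and -0.081 between days 10 and 20, and the counts were 31 at day 1, 21 at day 10, 12 at day 20, 19 for the mean of days 1 and 20 and 12 for the interaction.

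Omitting each library in turn, which also rescales the others, gave these ranges, rotenone minus 2-deoxyglucose. mir-785 ran between -0.10 and 0.29 at day 1, -0.13 and 0.19 at day 5, -0.12 and 0.11 at day 10, -0.25 and 0.054 at day 20, and -0.10 and 0.17 for the mean of days 1 and 20. mir-86 ran between 0.39 and 0.59 at day 10, -0.17 and 0.18 at day 20, and -0.036 and 0.20 for the mean of days 1 and 20. The number of called hairpins was 7 to 20 at day 1, 8 to 26 at day 5, 0 to 15 at day 10 and 1 to 3 at day 20. The count of 0 came without 2-deoxyglucose library 3 of day 10, where 26 hairpins had an unadjusted p under 0.05 in edgeR. The interaction ran between -0.26 and 0.055 for mir-86, -0.30 and 0.011 for mir-785, and 3 and 9 hairpins. By age, mir-86 ran between 0.054 and 0.24 and mir-785 between -0.028 and 0.21 for day 10 minus day 5, and mir-785 between -0.062 and 0.16 for day 20 minus day 10. Day 20 minus day 1 ran between -0.0017 and 0.27 for mir-86 in rotenone, -0.58 and -0.44 for mir-785 in rotenone, and -0.54 and -0.24 for mir-785 in 2-deoxyglucose.

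At day 20, 2 libraries a group limit the precision, and the intervals of mir-785 are wider than those of mir-86, with fewer counts.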
